A study of Mus musculus with 18 samples.

Results

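Organoids from mouse small intestinal crypts, embedded in collagen type I under cWRNE medium, were compared with the same kind of organoid grown in Matrigel with ENR medium. The COL_cWRNE and MG_Control groups held 3 libraries each, 6 of the 18 libraries of the study. Of 55414 genes in the deposited table, 16352 had enough counts to be tested. Crypts came from wild-type C57BL/6J mice, and the study describes its 3 replicates per group as biological. The cWRNE medium was used at 25%, and RNA was taken on day 6. A further group of 3 libraries, COL_Control, from crypts in collagen type I under ENRW medium, is set beside them throughout. MG_Control organoids were embedded in Matrigel, a basement membrane extract, under ENR medium, which holds EGF, Noggin and R-spondin 1, and none of these 3 groups received 5-fluorouracil. The composition of ENRW and of cWRNE was not given in the labels used here. Matrix and medium both differ between COL_cWRNE and MG_Control, and their effects cannot be told apart in that comparison. Between COL_cWRNE and COL_Control the matrix is the same and the medium differs.

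The crypts of the small intestine hold Lgr5-expressing stem cells and Paneth cells, which make Wnt ligands and antimicrobial peptides. Their progeny become absorptive enterocytes or goblet, enteroendocrine and tuft cells, and Wnt, Notch, EGF and BMP signals set the balance among them. Matrigel presents laminins and collagen IV, as a basement membrane does, whereas collagen type I is the main fibrillar protein of the stroma. After injury, intestinal epithelium can pass through a state with features of the fetal gut, marked by Ly6a, Anxa1 and Clu and linked to the transcriptional co-activator YAP.

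Library totals ranged from 25.8 to 33.2 M estimated counts over the 9 libraries. The first principal component of log2 CPM (counts per M, TMM-scaled) held 58.9% of the variance, with COL_cWRNE at one end, MG_Control at the other and COL_Control between them. Counts of Xist and of 4 Y-linked genes marked replicate 2 as male and replicates 1 and 3 as female in each of these groups, except that COL_Control replicate 3 held both signals. Without that library 7429 genes passed between COL_cWRNE and MG_Control and 2827 between COL_cWRNE and COL_Control, against 7592 and 3987 with it (both tests are described below). The epithelial genes Epcam (1887 ± 46.1 CPM in COL_cWRNE, 1810 ± 176 in COL_Control and 1573 ± 110.1 in MG_Control, mean ± SD, n = 3 each) and Cdh1 were high in every library. Summed over a list of 15 mesenchymal genes, COL_cWRNE libraries had 5.20 to 10.3 CPM, COL_Control libraries 2.05 to 4.11 and MG_Control libraries 5.72 to 7.24, with Col1a2, Col3a1, Pdgfra, Dcn, Lum and 4 others at 0 counts in COL_cWRNE. Over the 3 libraries of a group, Col1a1 had 42 counts in COL_cWRNE and 0 in MG_Control, Acta2 339 and 33, Tagln 108 and 28, and Pdgfrb 43 and 31, whereas Vim had 103 and 424. A list of 7 endothelial genes summed to 3.68 to 5.51, 0.197 to 0.849 and 0.966 to 1.80 CPM in the same order, with Cdh5 and Emcn at 0 in all 3 groups and Flt1 alone called. A list of 9 genes of enteric glia and neurons summed to 2.99 to 5.75, 4.08 to 4.84 and 6.87 to 8.40 CPM, with Sox10 at 0 in all 3 groups. A list of 13 immune genes summed to 102 to 143, 38.9 to 74.6 and 23.6 to 25.9 CPM, with Ptprc, Adgre1, C1qa, C1qb, Tyrobp and Cd79a at 0 counts in COL_cWRNE and Cd68, Csf1r and Cd14 higher there. In bulk libraries fewer cells of a type and less RNA per cell cannot be told apart, which holds for every cell type marker below.

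COL_cWRNE and MG_Control organoids differed in 7592 genes, 46.4% of those tested (edgeR quasi-likelihood test, adjusted p under 0.05). Of these, 4121 genes (25.2% of those tested) were higher in COL_cWRNE and 3471 (21.2%) were lower. These shares are the background for the counts of gene groups against MG_Control below. Some counts come from a fit with the villus-derived cultures in place of COL_Control. In that fit 3364 of all 16699 genes tested were higher in COL_cWRNE than in MG_Control and 2192 lower. The gene groups were chosen with earlier results of these data known, so their counts are descriptions and not independent tests. At a log2 fold change of at least 3 in size, 867 called genes were higher and 362 lower. The libraries of the groups did not overlap for 9077 genes (55.5%). The median log2 fold change over all genes tested was -0.01. Between COL_cWRNE and COL_Control 3987 genes passed (24.4%), 2486 higher (15.2%) and 1501 lower (9.18%), which is the background for counts against COL_Control. Scaled by library totals instead of TMM, that comparison gave 1898 genes higher and 2753 lower with a median over all genes of -0.17, and limma on the deposited TPM gave 1799 higher and 1906 lower. Both comparisons use the same COL_cWRNE libraries, so their values are given side by side and not as separate evidence.

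**Figure D1:**
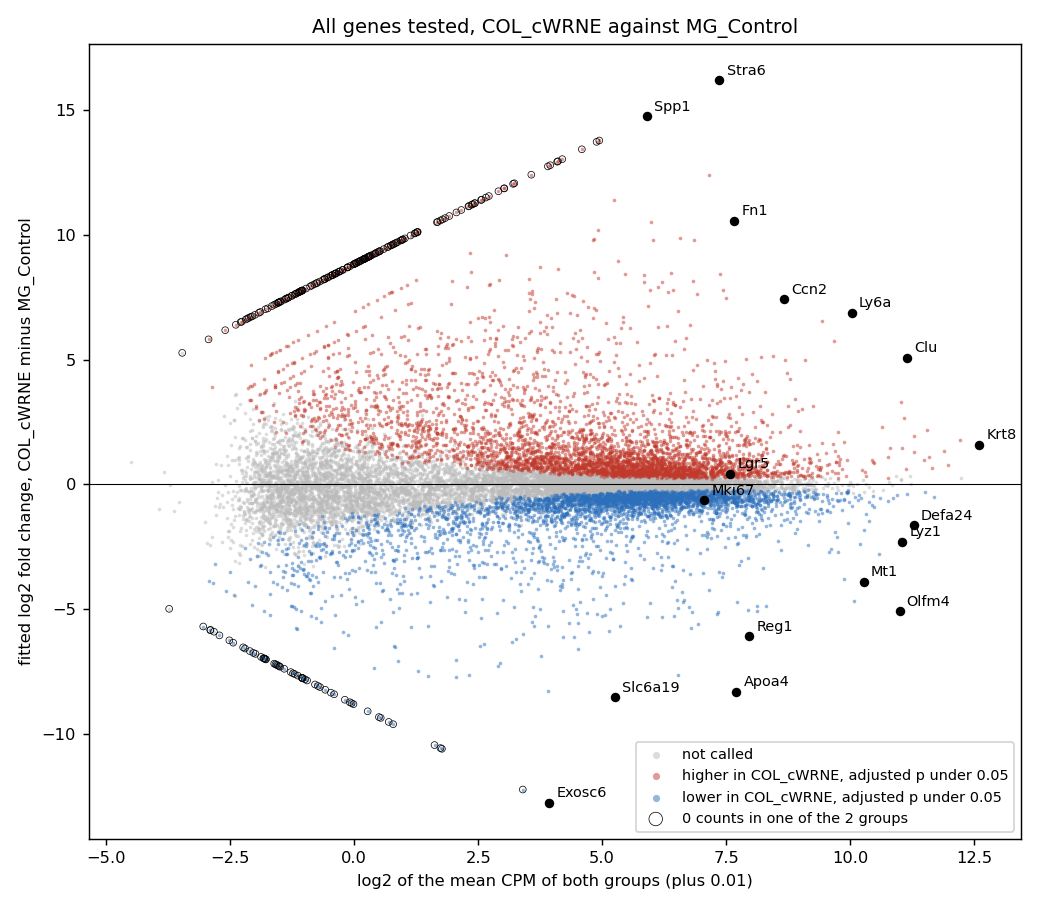
Fitted log2 fold change (COL_cWRNE minus MG_Control) of each gene tested against its mean level on a log2 scale (CPM). Red points are called higher and blue points lower in COL_cWRNE; ringed points had 0 counts in one group, and their fold changes depend on the prior count of the fit. Stra6 and Spp1 lie at the top, Exosc6 and Slc6a19 at the bottom, and Lgr5 and Mki67 near 0.

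The genes with the largest increases in COL_cWRNE were nearly silent in Matrigel and included 3 Wnt ligands. Stra6, the cell surface receptor through which retinol-binding protein delivers retinol, had 256, 481 and 251 CPM in the COL_cWRNE libraries, against 9.15, 5.98 and 2.65 CPM in COL_Control and 0 counts in every MG_Control library. It was thus at least 9457-fold higher than in MG_Control, taking 3 counts over a group's 3 libraries as the limit that a count of 0 allows. Its COL_cWRNE libraries were all above the COL_Control libraries as well (log2 fold change 5.79 ± 0.44, SE, adjusted p = 3.12e-05). Spp1, which encodes the secreted phosphoprotein osteopontin, had 92.4, 195 and 72.9 CPM in COL_cWRNE, 0.856, 0.991 and 0.671 CPM in COL_Control and 0 counts in MG_Control, at least 3462-fold higher. The Wnt ligand genes Wnt7b, Wnt10a and Wnt7a, described further below, were in the same set. Prss22, a serine protease gene, was at least 1038-fold higher, Cdh13, a cadherin without a cytoplasmic domain, at least 989.7-fold, and Ccdc80, a secreted matrix protein gene, at least 972-fold. Aqp5, a water channel of secretory glands, was at least 831-fold higher and Flnc, a filamin that crosslinks actin, at least 680.1-fold. Dkk2, a secreted modulator of Wnt signalling, had 25.2, 42.8 and 24.8 CPM in COL_cWRNE and 0 counts in both COL_Control and MG_Control, at least 886-fold higher than in MG_Control. In all, 28 called genes had 0 counts in both other groups, which leaves higher in COL_cWRNE as the only possible direction. Cyp1b1, a cytochrome P450 gene induced through the aryl hydrocarbon receptor, had 255, 363 and 232 CPM in COL_cWRNE, 41.8, 43.5 and 14.4 CPM in COL_Control and 0, 0.149 and 0 CPM in MG_Control (log2 fold change 12.42 ± 0.69, adjusted p = 1.63e-07).

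The largest decreases included transporters of amino acids and sugars, an apolipoprotein and enzymes of foreign compound metabolism. Apoa4, an apolipoprotein that enterocytes secrete with dietary fat, had 1.64, 1.37 and 0.902 CPM in COL_cWRNE, 11.5, 11.3 and 26.6 CPM in COL_Control and 499, 389 and 359.6 CPM in MG_Control (log2 fold change -8.31 ± 0.41, adjusted p = 9.74e-08). Its 3 groups did not overlap, with COL_cWRNE lowest. Slc6a19, the neutral amino acid transporter of the brush border, had 0, 0.573 and 0 CPM in COL_cWRNE and 50.7, 71.6 and 107 CPM in MG_Control. The sugar transporter genes Slc5a4b (-6.62 ± 0.43) and Slc5a11 (-6.48 ± 0.95) fell too, as did Slc6a4, the serotonin transporter (-6.87 ± 0.46). Reg3a, an antimicrobial lectin gene, had 0.143, 0 and 0.139 CPM in COL_cWRNE and 33.3, 31.4 and 25.3 CPM in MG_Control. Ugt2b5, a glucuronosyltransferase gene, changed by -7.66 ± 0.51, Ces1g, a carboxylesterase gene, by -7.28 ± 1.23, Nat8, an acetyltransferase gene, by -6.42 ± 0.83, and Spink1, a trypsin inhibitor gene, by -7.16 ± 0.68, all as log2 fold changes with SE. Cfhr2, a complement factor H-related gene, had 0 counts in COL_cWRNE and 13.6, 22.2 and 27.4 CPM in MG_Control, at least 629.5-fold lower. Exosc6, a subunit of the RNA exosome, had 0 estimated counts in the 3 COL_cWRNE and the 3 villus-derived libraries, and at least 207 in each of the other 12 libraries of the study. The villus-derived cultures also had cWRNE at 25%, and those 12 libraries had none. The estimated counts of Exosc6 were not whole numbers, so reads shared with another gene model cannot be told apart from its own.

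On the scale of CPM, where long and abundant transcripts weigh most, the largest differences were in keratins and crypt base genes. Krt8 had 9530, 10650 and 7821 CPM in COL_cWRNE, 4032, 3009 and 3357 CPM in COL_Control and 2812, 3319 and 3184 CPM in MG_Control (log2 fold change 1.59 ± 0.14, adjusted p = 3.09e-06). Its partners in the filaments of simple epithelium rose with it, Krt18 by 1.92 ± 0.15 and Krt19 by 1.78 ± 0.15, and the COL_cWRNE libraries were above all others for each. Bsg, which encodes the chaperone of lactate transporters basigin, rose by 2.19 ± 0.19, and Anxa2, a membrane-binding annexin, by 2.66 ± 0.14. Pkm, the last enzyme of glycolysis, had 5449 ± 446 CPM in COL_cWRNE, 5292 ± 171 CPM in COL_Control and 2177 ± 524 CPM in MG_Control, with a difference of 0.04 ± 0.14 between the collagen groups that did not pass (adjusted p = 0.864). Abundant genes that fell included Olfm4, Lyz1, Itln1, Defa24, Cps1, Mt1 and Dmbt1, each described with its group.

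Genes of fetal-like and regenerative epithelium rose almost throughout. Of 24 members tested, 23 rose and 0 fell, with a median log2 fold change of 4.48, beside -0.01 over all genes, and 22 also rose against COL_Control (median 1.86). Ly6a, which encodes the surface protein Sca-1, had 2392, 2023 and 1835 CPM in COL_cWRNE, 828, 407 and 454 CPM in COL_Control and 21.9, 20.8 and 10.2 CPM in MG_Control (log2 fold change 6.89 ± 0.38, adjusted p = 1.51e-07). Clu, the clusterin gene that marks revival stem cells, had 4229, 5890 and 3028 CPM in COL_cWRNE, 1591, 997 and 738 CPM in COL_Control and 127, 141 and 123 CPM in MG_Control (log2 fold change 5.07 ± 0.31, adjusted p = 3.14e-07). For both genes the 3 groups were separate, COL_cWRNE highest and MG_Control lowest. Anxa1, an annexin of the fetal gut signature, had 1420, 1626 and 1083 CPM in COL_cWRNE, 453, 248 and 180 CPM in COL_Control and 18.7, 17.5 and 8.33 CPM in MG_Control. Msln, which encodes mesothelin, had 2076, 2874 and 1557 CPM in COL_cWRNE, 534, 329 and 187 CPM in COL_Control and 25.3, 19.1 and 10.5 CPM in MG_Control. Again no library of a group reached the range of the next. Other annexins and membrane genes followed, with Anxa8 at 8.13 ± 0.35, Anxa5 at 4.24 ± 0.21 and Emp1 at 3.70 ± 0.11, all as log2 fold changes against MG_Control. Il33, an epithelial alarmin, rose by 6.96 ± 0.37 and Il1rn, the interleukin-1 receptor antagonist, by 5.02 ± 0.30. Gja1, a connexin gene, was the member that did not pass, at 0.418 ± 0.0528 CPM in COL_cWRNE and 0.199 ± 0.345 CPM in MG_Control, all of it in replicate 2. Ly6a belongs to a family of close paralogs, so its own level is less certain than the others.

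**Figure D2:**
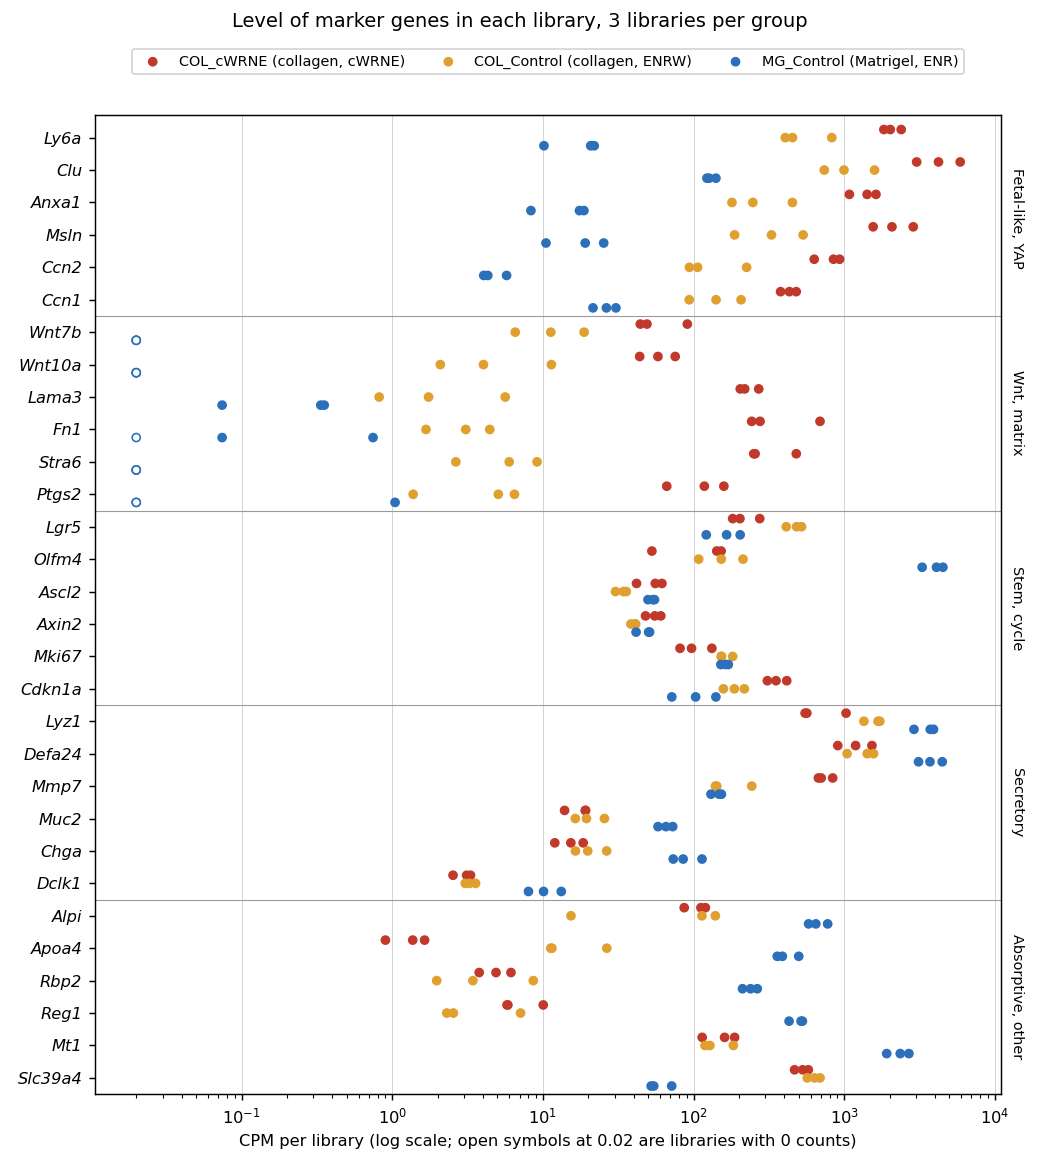
CPM of 30 marker genes in each of the 9 libraries on a log axis, red for COL_cWRNE, orange for COL_Control and blue for MG_Control, 3 points per group. Ly6a, Clu, Anxa1, Msln, Ccn2 and Ccn1 step up across the 3 groups with COL_cWRNE highest, Olfm4, Reg1 and Mt1 are high in MG_Control alone, and Lgr5, Ascl2 and Axin2 of COL_cWRNE overlap those of MG_Control.

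YAP and its partner TAZ move to the nucleus when cells spread or the matrix is stiff, where they act through TEAD factors on targets such as the matricellular genes Ccn1 and Ccn2. Of 21 such targets tested, 20 rose and 0 fell (median 3.63), and 17 rose against COL_Control (median 2.09). Ccn2 had 849.5, 933 and 633 CPM in COL_cWRNE, 225, 107 and 93.9 CPM in COL_Control and 4.31, 5.75 and 4.05 CPM in MG_Control (log2 fold change 7.42 ± 0.38, adjusted p = 1.19e-07). Ccn1 had 481, 433 and 379 CPM in COL_cWRNE, 207, 141 and 93.7 CPM in COL_Control and 21.5, 30.6 and 26.4 CPM in MG_Control (log2 fold change 4.04 ± 0.26, adjusted p = 4.1e-07). The groups were separate for both, with COL_Control in between. F3, which encodes tissue factor, the starter of coagulation, had 1745, 1687 and 1359 CPM in COL_cWRNE, 273, 168 and 171 CPM in COL_Control and 34.6, 36.8 and 19.2 CPM in MG_Control. Ankrd1, a nuclear ankyrin repeat protein, had 78.0, 103 and 43.7 CPM in COL_cWRNE and 2 counts over MG_Control, a ratio of 3220 (95% counting interval 890 to 26600). Myof, a membrane repair gene, rose by 5.41 ± 0.30, and the kinase Lats2, which restrains YAP and is itself a target, by 3.63 ± 0.32. Axl, a receptor tyrosine kinase gene, had 6.40 ± 1.88 CPM in COL_cWRNE and 0 counts in MG_Control, at least 182-fold higher. Nuak2 alone of the members tested did not pass (-0.06 ± 0.20, adjusted p = 0.845).

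The promoters of Ankrd1 and Ccn1 are shown because TEAD factors are known to bind CATTCC. The letters CATTCC, or GGAATG on the other strand, were looked for in the 250 bases before each gene's start in RefSeq (GRCm38.p6). They occurred in 6 of the 14 YAP targets with a promoter in that table (42.9%), where a gene counted if any of its promoters matched. Counted the same way, the share was 13.0% of the 11004 tested genes with a promoter. Over all 32851 single promoters it was 12.6%. Capitals mark the matches, on either strand, and each sequence reads 5′ to 3′ towards the gene.
Ankrd1 (chr19:36119845-36120094, minus strand): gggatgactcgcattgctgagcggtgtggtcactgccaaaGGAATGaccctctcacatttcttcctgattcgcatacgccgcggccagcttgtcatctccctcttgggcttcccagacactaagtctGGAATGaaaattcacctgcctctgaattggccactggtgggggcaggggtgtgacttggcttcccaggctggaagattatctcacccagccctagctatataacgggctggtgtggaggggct
Ccn1 (chr3:145649986-145650235, minus strand): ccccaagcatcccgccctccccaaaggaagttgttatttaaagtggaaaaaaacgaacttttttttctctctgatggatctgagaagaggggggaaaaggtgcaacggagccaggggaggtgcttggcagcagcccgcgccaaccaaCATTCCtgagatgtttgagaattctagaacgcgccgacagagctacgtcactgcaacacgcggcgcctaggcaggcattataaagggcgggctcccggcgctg
Ankrd1 held matches starting 210 and 123 bases before the gene start, and Ccn1 held one 103 bases before it. A match of letters is a description of the sequence, and binding was not measured.

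Several Wnt ligand genes with 0 counts in Matrigel were among the largest increases. Wnt7b had 49.1, 91.0 and 44.4 CPM in COL_cWRNE, 18.8, 11.3 and 6.56 CPM in COL_Control and 0 counts in MG_Control, at least 1765-fold higher. Wnt10a had 58.1, 75.6 and 43.9 CPM in COL_cWRNE, 11.4, 4.04 and 2.09 CPM in COL_Control and 0 counts in MG_Control, at least 1687-fold higher. Wnt7a had 48.9, 65.6 and 30.0 CPM in COL_cWRNE, 1.84, 0.850 and 0.708 CPM in COL_Control and 0 counts in MG_Control, at least 1375-fold higher. All 3 genes were also higher in COL_cWRNE than in every COL_Control library. Wnt6 rose by 4.89 ± 0.67, while Wnt3, the ligand that Paneth cells make, was at 7.62 ± 2.21 CPM in COL_cWRNE and 10.7 ± 0.909 CPM in MG_Control and did not pass (-0.49 ± 0.24, adjusted p = 0.113, though it passed without COL_cWRNE replicate 1, at -0.73). Wls, which carries Wnt proteins to the cell surface, rose by 2.17 ± 0.13, and Porcn, the enzyme that attaches their lipid, by 2.08 ± 0.20. Among secreted antagonists Sfrp5 fell (0.813 ± 0.531 CPM in COL_cWRNE and 26.2 ± 5.45 CPM in MG_Control), and Notum, a Wnt-deacylating enzyme, rose at a low level (0.915 ± 0.516 CPM in COL_cWRNE and 0.153 ± 0.00689 CPM in MG_Control), a call lost without COL_cWRNE replicate 3 (2.03, adjusted p = 0.0569). Of the 14 ligand and antagonist genes tested from the list, 7 rose and 1 fell; Wnt7a and Wnt10a were not on it.

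Wnt target genes moved unevenly, and the main stem cell markers did so as well. Of 20 targets tested, 11 rose and 0 fell (median 0.75), and against COL_Control 9 rose and 1, Lgr5, fell (median 0.54). Cd44, a hyaluronan receptor, rose by 2.59 ± 0.17, Tnfrsf19, also called Troy, by 3.46 ± 0.24, Sp5, a Wnt feedback repressor, by 2.03 ± 0.19, and Rnf43, a ligase that removes Wnt receptors, by 1.16 ± 0.11. Ccnd1 rose by 1.94 ± 0.21, Nkd1 by 2.54 ± 0.31 and Lef1 by 5.89 ± 0.77. Axin2, the usual readout of the pathway, did not pass at 48.0, 55.3 and 60.7 CPM in COL_cWRNE and 51.1, 41.6 and 50.4 CPM in MG_Control (0.20 ± 0.12, adjusted p = 0.21). Against COL_Control Axin2 was higher (0.44 ± 0.12, adjusted p = 0.0202). Lgr5, the R-spondin receptor of crypt stem cells, had 203, 182 and 275 CPM in COL_cWRNE, 413, 521 and 483 CPM in COL_Control and 204, 122 and 166 CPM in MG_Control. The COL_cWRNE and MG_Control ranges overlapped (0.43 ± 0.19, adjusted p = 0.091, passing without MG_Control replicate 1 at 0.61 and without the filter on low counts at 0.42), whereas COL_cWRNE lay below COL_Control (-1.10 ± 0.19, adjusted p = 0.00173). Ascl2, a stem cell transcription factor, was at 55.8, 41.9 and 61.7 CPM in COL_cWRNE and 53.7, 55.1 and 49.9 CPM in MG_Control, also overlapping, and its fold change near 0 took either sign under other scalings. Against COL_Control Ascl2 was higher (0.67 ± 0.14, adjusted p = 0.00534).

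Olfm4, a secreted glycoprotein of crypt base cells, differed most among the stem cell genes. It had 153, 52.9 and 143 CPM in COL_cWRNE, 153, 108 and 213 CPM in COL_Control and 3294, 4100 and 4524 CPM in MG_Control (log2 fold change -5.10 ± 0.40, adjusted p = 1.42e-06). Both collagen groups were low and overlapped, and MG_Control stood far above them. Smoc2, another gene of Lgr5 cells, had 206, 144 and 233 CPM in COL_cWRNE, 771, 755 and 816 CPM in COL_Control and 707, 720.2 and 844 CPM in MG_Control, so that here COL_cWRNE alone was low. Aqp4, a water channel, changed by -2.84 ± 0.39. Among the 26 tested genes of the crypt stem cell list, 9 rose and 9 fell (median 0.00). Those that rose included Alcam, an adhesion molecule (2.16 ± 0.10), Sorbs2 (1.94 ± 0.16), Prom1, which encodes CD133 (0.98 ± 0.13), and Gkn3, a gastrokine (0.87 ± 0.19).

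Matrix receptors and the cell's own basement membrane genes rose together in collagen cWRNE. Of 23 integrin and focal adhesion genes tested, 21 rose and 0 fell (median 1.48), and 18 rose against COL_Control. Itgb6, the partner of Itgav in an integrin that activates TGF-beta, had 356, 458 and 331 CPM in COL_cWRNE, 103, 72.5 and 61.8 CPM in COL_Control and 24.2, 38.6 and 36.9 CPM in MG_Control. Itgav itself rose by 2.92 ± 0.14 (adjusted p = 9.74e-08). The collagen receptor subunit Itga2 had 198, 245 and 208 CPM in COL_cWRNE, 106, 129 and 86.7 CPM in COL_Control and 49.4, 44.9 and 53.5 CPM in MG_Control (log2 fold change 2.14 ± 0.15). The other collagen receptor subunit, Itga1, was at 35.0 ± 6.62 CPM in COL_cWRNE and 26.8 ± 8.58 CPM in MG_Control and did not pass (adjusted p = 0.18), except without MG_Control replicate 3 (0.66). Ddr1, a receptor kinase that binds collagen, rose by 1.93 ± 0.11. Among laminin receptor subunits Itga6 rose by 0.87 ± 0.13, Itgb4 by 2.11 ± 0.16 and Itga3 by 1.27 ± 0.15, and the shared subunit Itgb1 by 1.59 ± 0.14. Itgb5 rose by 1.11 ± 0.15 and Itga5, a fibronectin receptor subunit, by 1.48 ± 0.29. Itgb8 had 74 counts over COL_cWRNE and 1 over MG_Control, a ratio of 71.1 (95% counting interval 12.4 to 2850). Of the linkers to actin and keratin filaments, Flna rose by 3.13 ± 0.28, Actn1 by 1.91 ± 0.17, Vcl by 1.89 ± 0.14 and Plec by 1.76 ± 0.15. Smaller rises were those of Zyx (0.73 ± 0.15), Tln1 (0.73 ± 0.18), Ptk2 (0.59 ± 0.09) and Pxn (0.45 ± 0.10), with Cd151 at 1.05 ± 0.17 and Dst at 1.17 ± 0.22. Col17a1, a hemidesmosome collagen, did not pass at 0.0424 ± 0.0735 CPM in COL_cWRNE and 0.343 ± 0.299 CPM in MG_Control.

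Of 16 laminin and basement membrane genes, 13 rose and 0 fell (median 3.65). Lama3 and Lamb3 encode chains of an anchoring laminin of epithelia. Lama3 had 204, 271 and 219 CPM in COL_cWRNE, 1.74, 5.63 and 0.819 CPM in COL_Control and 0.0743, 0.336 and 0.354 CPM in MG_Control (log2 fold change 9.78 ± 0.64, adjusted p = 4.03e-07). Lama3 was low in both other groups, and its COL_cWRNE libraries stood apart. Lamb3 rose by 2.36 ± 0.16 and Lama5 by 4.32 ± 0.23. The collagen IV genes Col4a1 and Col4a2 had 167 ± 65.0 and 172 ± 66.4 CPM in COL_cWRNE, 62.0 ± 36.7 and 51.8 ± 27.3 CPM in COL_Control, and 0.484 ± 0.524 and 0.806 ± 1.09 CPM in MG_Control. These genes share a promoter region and are read in opposite directions, and both were nearly silent in Matrigel. Mesenchymal cells also make collagen IV, and of their list 9 of 15 genes had 0 counts in COL_cWRNE, while Col1a1, Acta2, Tagln and Pdgfrb had more than in MG_Control, as given above; their part in this result was not tested.

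Fibronectin joined the matrix genes. Fn1 had 243, 691 and 277 CPM in COL_cWRNE, 4.44, 3.08 and 1.68 CPM in COL_Control and 0.0743, 0.746 and 0 CPM in MG_Control (log2 fold change 10.57 ± 0.75, adjusted p = 7.2e-07). Tnc, which encodes tenascin-C, had 9.39, 20.8 and 5.41 CPM in COL_cWRNE and 0 counts in MG_Control, at least 343-fold higher. Other genes of epithelial-mesenchymal transition stayed low. Vim, the mesenchymal intermediate filament, fell to 1.16 ± 0.304 CPM in COL_cWRNE, against 1.44 ± 0.762 CPM in COL_Control and 4.97 ± 0.618 CPM in MG_Control, and Snai2 fell to 0.0714 ± 0.124 CPM in COL_cWRNE, against 1.11 ± 0.607 CPM in MG_Control. At so few counts the fitted change of Snai2 (-3.92) was -8.02 without COL_cWRNE replicate 1, and its call was lost without COL_cWRNE replicate 2 (-3.35), COL_cWRNE replicate 3 (-3.37) or MG_Control replicate 3 (-3.40). Cdh1, the epithelial cadherin, rose by 0.88 ± 0.13. Zeb1, Zeb2, Snai1, Twist1 and Cdh2 had too few counts to be tested. Acta2, a smooth muscle actin, rose at a low level (3.80 ± 0.980 CPM in COL_cWRNE and 0.386 ± 0.141 CPM in MG_Control).

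All 12 matrix protease and inhibitor genes that could be tested rose (median 3.48). A further 6 listed genes, among them Mmp2, Mmp3, Mmp9, Mmp10 and Mmp13, had too few counts. With the villus-derived cultures in place of COL_Control in the fit, 10 of 16 tested rose and 0 fell. A gene near 0 counts in MG_Control passed the count filter through other libraries, so a fall could hardly be called for it. The same holds for such genes in every other list. Mmp14, the membrane-type collagenase, had 245, 336 and 204 CPM in COL_cWRNE, 114, 101 and 89.5 CPM in COL_Control and 67.5, 61.2 and 63.4 CPM in MG_Control (log2 fold change 2.03 ± 0.17). Mmp15, of the same class, rose by 2.20 ± 0.14. Plat and Plau, the tissue and urokinase plasminogen activators, rose by 3.94 ± 0.21 and 2.97 ± 1.13, and Plaur, the urokinase receptor, by 3.26 ± 0.29. The metalloproteinase inhibitors Timp1, Timp2 and Timp3 rose by 3.71 ± 1.14, 5.87 ± 0.47 and 1.41 ± 0.29. Timp2 had 206, 269 and 135 CPM in COL_cWRNE, against 33.5, 16.8 and 12.5 CPM in COL_Control and 5.57, 2.31 and 2.57 CPM in MG_Control. Plau passed narrowly (adjusted p = 0.0496), lost the call without any 1 library other than MG_Control replicate 2, with values of 2.34 to 3.07, and was at 8.09 without that one. Timp1 lost its call without COL_cWRNE replicate 2 (3.43) or MG_Control replicate 2 (3.09) and was at 8.83 without MG_Control replicate 1. Plau was low in level, at 1.18 ± 0.160 CPM in COL_cWRNE.

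TGF-beta genes rose at the level of ligand, receptor and target. Of 13 tested, 9 rose and 0 fell (median 3.38). Tgfb2, Tgfb3, Inhba and Ltbp1 had almost no counts in MG_Control, so a fall could hardly be called for them. With a minimum of 10 CPM in at least 3 libraries, 5 of 8 tested rose and 0 fell, where 3039 of all 10306 genes tested rose. Of the ligands, Tgfb1 rose by 3.38 ± 0.25, Tgfb3 was at least 191-fold higher (6.10, 10.3 and 3.57 CPM in COL_cWRNE and 0 counts in MG_Control), and Tgfb2 had 375 counts over COL_cWRNE and 1 over MG_Control (ratio 360, 95% counting interval 64.3 to 14300). Ltbp1, which holds latent TGF-beta in the matrix, had 8.31, 16.6 and 4.68 CPM in COL_cWRNE and 0 counts in MG_Control, at least 284-fold higher. The receptor gene Tgfbr2 rose by 1.78 ± 0.10, while Tgfbr1 was at -0.36 ± 0.25 and did not pass. Among targets Pmepa1, a feedback inhibitor, had 176, 225 and 171 CPM in COL_cWRNE, 31.9, 21.7 and 25.8 CPM in COL_Control and 15.9, 15.5 and 12.4 CPM in MG_Control. Its COL_cWRNE libraries stood apart from both other groups. Inhba, an activin subunit, had 4.89, 19.3 and 6.73 CPM in COL_cWRNE and 0 counts in MG_Control, at least 300-fold higher. Of 14 BMP pathway genes 6 rose, among them the ligands Bmp2 (2.34 ± 0.24) and Bmp8b (5.20 ± 0.21), the inhibitor Smad7 (2.13 ± 0.18) and Id2 (1.62 ± 0.19), and 2 fell, among them Bmp7 (-1.51 ± 0.20).

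Some keratins of stratified and ductal epithelium rose beside those of simple epithelium. Krt7, a ductal keratin, had 3896, 4521 and 2964 CPM in COL_cWRNE, 1175, 698 and 631 CPM in COL_Control and 394, 426 and 345 CPM in MG_Control (log2 fold change 3.29 ± 0.24, adjusted p = 8.45e-07). Krt4, a keratin of oesophageal-type epithelium, had 244, 279 and 160.1 CPM in COL_cWRNE, 15.4, 9.77 and 4.47 CPM in COL_Control and 1.19, 0.560 and 0.643 CPM in MG_Control (log2 fold change 8.16 ± 0.49). Krt14, a basal keratin, had 895 counts over COL_cWRNE and 1 over MG_Control, a ratio of 860 (95% counting interval 154 to 34000). Krt23 rose by 2.80 ± 0.22, Krt80 by 2.66 ± 0.34 and Krt17 by 4.36 ± 1.15, whereas Krt15 changed by -3.17 ± 0.76. Krt20, a keratin of differentiated enterocytes, did not pass (71.6 ± 8.47 CPM in COL_cWRNE and 88.8 ± 0.935 CPM in MG_Control), except in a fit of the 2 groups alone (-0.34) or without COL_Control replicate 1 (-0.31). The envelope genes Sprr1a, Ivl and Ecm1 rose by 5.11 ± 0.51, 4.17 ± 0.88 and 6.53 ± 0.45, and the Sprr2a copy Sprr2a3, which has near-identical neighbours, by 1.02 ± 0.35. The call for Sprr2a3 was lost without COL_cWRNE replicate 1 (0.91) or 2 (0.84) or MG_Control replicate 2 (0.87) or 3 (0.66), and the value was 1.61 without MG_Control replicate 1. In all, 13 of 15 tested genes of this list rose, Krt8, Krt18 and Krt19 of simple epithelium among them, and 1 fell. Krt5, Krt6a, Krt13 and Krtdap had too few counts to be tested.

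Of 12 tested genes of the S100 list 10 rose (median 2.58), which encode small calcium-binding proteins. S100a6 had 821, 939 and 660.1 CPM in COL_cWRNE, 306, 195 and 178 CPM in COL_Control and 44.8, 34.1 and 30.3 CPM in MG_Control, and S100a14 rose by 4.77 ± 0.29, S100a11 by 3.12 ± 0.18 and S100a16 by 2.13 ± 0.14. Among 16 claudins and tight junction genes, 8 rose and 3 fell, or 1 without COL_cWRNE replicate 3 or MG_Control replicate 2. Cldn4 rose by 3.47 ± 0.19, Cldn6, a claudin of embryonic epithelium, by 7.59 ± 0.64 and F11r by 1.52 ± 0.10. Cldn15, the cation-conducting claudin of the small intestine, changed by -2.11 ± 0.23. Of 6 stomach and Brunner gland genes tested 5 rose, including Ctse, which encodes cathepsin E (137, 172 and 107 CPM in COL_cWRNE and 1.71, 1.42 and 2.09 CPM in MG_Control), and Cldn18 (2.12 ± 0.68). The call for Cldn18 was lost without COL_cWRNE replicate 1 (1.44) or MG_Control replicate 3 (1.75), and 3 of the stomach genes rose without COL_cWRNE replicate 1. Tff2, Muc5ac, Muc6, Gkn1, Gkn2 and Sox2 had too few counts to be tested.

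Absorptive enterocyte genes fell more than any other list of at least 6 tested genes by the median. Of 28 tested, 25 fell and 0 rose (median -3.74). Against COL_Control 8 fell and 2 rose (median -0.73). Rbp2, the retinol-binding protein of enterocytes, had 4.89, 6.14 and 3.78 CPM in COL_cWRNE, 1.98, 3.43 and 8.64 CPM in COL_Control and 212, 265 and 239 CPM in MG_Control (log2 fold change -5.59 ± 0.42, adjusted p = 1.08e-06). Alpi, the intestinal alkaline phosphatase, had 86.8, 119.9 and 112 CPM in COL_cWRNE, 15.4, 114 and 139.6 CPM in COL_Control and 581, 649 and 777 CPM in MG_Control (log2 fold change -2.65 ± 0.55, adjusted p = 0.00197). The collagen groups overlapped for both genes, below every MG_Control library. Fabp1, the fatty acid-binding protein of the proximal gut, had 13.9, 18.0 and 12.0 CPM in COL_cWRNE, 36.3, 242 and 307 CPM in COL_Control and 667, 403 and 367 CPM in MG_Control. Fabp1 thus differed between the media in collagen (-3.73 ± 0.60, adjusted p = 0.000998). Sis, which encodes sucrase-isomaltase, changed by -4.65 ± 0.46, Fabp2 by -5.11 ± 0.41, the glucose transporter Slc5a1 by -1.78 ± 0.22 and Apoa1 by -5.07 ± 0.38.

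The factors that set intestinal identity changed less. Of 18 identity genes, 7 rose, including the keratins Krt8, Krt18 and Krt19 named above, and 7 fell. Hnf4a, a regulator of enterocyte genes, had 354, 329 and 383 CPM in COL_cWRNE, 469, 592 and 546 CPM in COL_Control and 719.6, 706 and 851 CPM in MG_Control (log2 fold change -1.09 ± 0.12). Its paralog Hnf4g changed by -1.89 ± 0.22 and Cdx1 by -1.34 ± 0.11, while Cdx2, the main determinant of intestinal fate, did not pass (-0.26 ± 0.11, adjusted p = 0.0784). Cdx2 passed without COL_cWRNE replicate 1 (-0.35) or 3 (-0.34), with library totals (-0.34) and with a minimum of 10 CPM (-0.28). Of 11 microvillus genes, Myo1a (-2.60 ± 0.23) and Cdhr5 (-1.15 ± 0.12) fell and 4 rose, including the linker Ezr (1.63 ± 0.10) and Mal (8.44 ± 0.69, or 14.32 without MG_Control replicate 1). Of 8 proximal small intestine genes 3 rose and 2 fell, with the iron genes Cybrd1 and Slc40a1 at 2.58 ± 0.30 and 1.59 ± 0.19. Of 6 distal genes Guca2a (-1.55 ± 0.21) and Clec2h (-1.82 ± 0.39) fell and Slc10a2, the ileal bile acid transporter, rose (2.10 ± 0.42).

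Most antimicrobial genes of enterocytes were lower in COL_cWRNE, and so were most Paneth cell genes, though the latter count depended on the fit. Of 8 Reg family and other antimicrobial genes 5 fell and 2 rose, Reg3b, a lectin (0.96, not called without COL_cWRNE replicate 3, at 0.67), and Pglyrp1, a peptidoglycan-binding protein (0.72). Reg1, a secreted lectin, had 5.78, 10.1 and 5.86 CPM in COL_cWRNE, 2.30, 2.55 and 7.11 CPM in COL_Control and 431, 518 and 528 CPM in MG_Control (log2 fold change -6.08 ± 0.39, adjusted p = 3.83e-07). Dmbt1, a mucin-like bacteria-binding protein, had 68.6, 101 and 71.8 CPM in COL_cWRNE, 79.1, 559 and 291 CPM in COL_Control and 1726, 1541 and 2945 CPM in MG_Control. Nox1, an oxidase gene, changed by -3.09 ± 0.45. Of 18 Paneth cell genes, 14 fell and 3 rose (median -1.58), and with the villus-derived cultures (VIL) in place of COL_Control in the fit, 3 fell and 2 rose. Against COL_Control 7 rose, Defa5, Defa21 and Defa22 among them, and 2, Lyz1 and Itln1, fell (median -0.08). Lyz1, the Paneth cell lysozyme, had 1029, 565 and 551 CPM in COL_cWRNE, 1677, 1352 and 1723 CPM in COL_Control and 2907, 3917 and 3729 CPM in MG_Control (log2 fold change -2.30 ± 0.23, adjusted p = 8.89e-06). Itln1, an intelectin, changed by -2.20 ± 0.23. Every defensin gene tested fell against MG_Control, with log2 fold changes of -2.26 for Defa30, -2.10 for Defa23, -1.94 for Defa5, -1.74 for Defa26, -1.64 for Defa24, -1.47 for Defa3, -1.47 for Defa17, -1.38 for Defa21 and -1.38 for Defa22. Defensin genes, like Lyz1 and Lyz2, are close paralogs whose reads can be split among copies, so single values are uncertain. Mmp7, the protease that activates defensins, went the other way, with 839, 675 and 704 CPM in COL_cWRNE, 244, 139.9 and 143 CPM in COL_Control and 148, 153 and 131 CPM in MG_Control (log2 fold change 2.36 ± 0.20). Nupr1, a stress-induced chromatin protein, rose by 2.73 ± 0.25 and the ribonuclease Ang4 by 0.63 ± 0.17, a call lost without COL_cWRNE replicate 1 (0.42) or MG_Control replicate 2 (0.56).

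Goblet and enteroendocrine genes fell against MG_Control. Of 17 goblet cell genes 14 fell and 2 rose (median -1.28), and 7 fell with VIL in the fit. Against COL_Control 5 rose and 4 fell (median -0.16). Muc2, the gel-forming mucin, had 19.1, 19.2 and 13.9 CPM in COL_cWRNE, 19.5, 16.4 and 25.6 CPM in COL_Control and 72.8, 58.1 and 65.6 CPM in MG_Control (log2 fold change -1.91 ± 0.19, adjusted p = 8.05e-06). Agr2, which helps mucins fold, changed by -1.55 ± 0.17, Fcgbp by -2.42 ± 0.20 and Tff3 by -1.39 ± 0.20. Of 26 enteroendocrine genes 22 fell and 3 rose (median -2.29), 13 fell with VIL in the fit, and 11 fell and 4 rose against COL_Control. Chga, a granule protein, had 18.5, 15.3 and 12.0 CPM in COL_cWRNE, 26.5, 16.5 and 19.9 CPM in COL_Control and 73.4, 114 and 85.4 CPM in MG_Control (log2 fold change -2.57 ± 0.23). The hormone genes Sst (-6.01 ± 0.47), Gcg (-3.52 ± 0.30) and Tac1 (-3.33 ± 0.22) fell, as did Neurog3, the factor that starts the lineage (-3.23 ± 0.35). The 3 that rose were Cpe, a prohormone-processing enzyme (1.39 ± 0.32), and the hormone genes Nts (2.12 ± 0.55) and Pyy (3.02 ± 0.87). Without COL_cWRNE replicate 2 Cpe was at 0.79, still called, and Pyy at 2.84, not called (adjusted p = 0.0516).

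Tuft cell genes were split. Dclk1, the usual tuft cell marker, had 2.53, 3.31 and 3.12 CPM in COL_cWRNE, 3.26, 3.58 and 3.05 CPM in COL_Control and 8.03, 10.1 and 13.3 CPM in MG_Control (log2 fold change -1.81 ± 0.26), and the channel gene Trpm5 changed by -1.75 ± 0.34, which did not pass with limma on TPM (-0.16, adjusted p = 0.624). Avil, an actin-binding protein of tuft cells, had 63.7, 78.8 and 53.6 CPM in COL_cWRNE and 7.32, 14.4 and 8.33 CPM in MG_Control, and Ptgs1 rose by 2.50 ± 0.52. Of 16 tested 7 fell and 3 rose, and 4 fell with VIL in the fit. Against COL_Control 3 rose and 0 fell. Among Notch pathway and fate genes, the ligand Dll1 of secretory precursors changed by -2.28 ± 0.16 and Atoh1, the factor of secretory fate, by -1.62 ± 0.19. The ligands Jag1 and Jag2 rose by 2.63 ± 0.19 and 2.41 ± 0.15, and Sox4 by 1.80 ± 0.15. In all 5 of 16 rose and 6 fell.

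Genes of DNA replication were lower and p53 target genes higher. Of 25 S phase genes 23 fell and 0 rose (median -0.65), and of 24 G2/M genes 15 fell and 0 rose (median -0.39). With VIL in place of COL_Control in the fit, 10 and 0 fell, and limma on TPM gave 8 G2/M genes lower. Fen1, a flap endonuclease, changed by -1.26 ± 0.09, Mcm5, a helicase subunit, by -1.06 ± 0.10 and Prim1, a primase subunit, by -1.29 ± 0.12. Mki67, a marker of cycling cells, had 97.0, 81.4 and 132 CPM in COL_cWRNE, 182, 153 and 154 CPM in COL_Control and 163, 152 and 170.2 CPM in MG_Control (log2 fold change -0.64 ± 0.16, adjusted p = 0.0055). Its COL_cWRNE libraries were below both other groups. Birc5, Plk1, Kif11 and Ccna2 changed by -1.02 ± 0.13, -0.79 ± 0.11, -1.02 ± 0.18 and -0.73 ± 0.14.

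Of 27 p53 targets 23 rose and 3 fell (median 1.31), and 13 rose against COL_Control. Without COL_cWRNE replicate 1 or 2, or MG_Control replicate 1 or 2, 1 fell. Cdkn1a, which encodes the cyclin-dependent kinase inhibitor p21, had 416, 353 and 309 CPM in COL_cWRNE, 217, 158 and 187 CPM in COL_Control and 141, 103 and 71.8 CPM in MG_Control (log2 fold change 1.77 ± 0.22, adjusted p = 4.42e-05). The 3 groups did not overlap. Plk2, a polo-like kinase, rose by 4.27 ± 0.18, Phlda3, an inhibitor of Akt, by 3.35 ± 0.24, Pmaip1, which encodes the death-promoting protein Noxa, by 2.69 ± 0.12, Tnfrsf10b, a death receptor, by 2.17 ± 0.17 and Mdm2, the ligase that degrades p53, by 1.57 ± 0.14. Ddb2 (-0.87 ± 0.16), Sesn1 (-0.66 ± 0.25) and Pidd1 (-0.48 ± 0.18), p53 targets too, fell. Sesn1 lost its call without COL_cWRNE replicate 1 or 2 or any 1 MG_Control library (-0.71 to -0.49) and was at -1.04 without COL_cWRNE replicate 3, and Pidd1 lost it without any 1 COL_cWRNE library or MG_Control replicate 1 or 2 (-0.56 to -0.47). Among 15 death pathway genes 6 rose, with Tnfrsf11b, the decoy receptor osteoprotegerin, at 299, 416 and 368 CPM in COL_cWRNE and 1.56, 1.83 and 2.67 CPM in MG_Control. The pore-forming Gsdmd rose by 2.72 ± 0.12, Casp8 by 1.78 ± 0.10 and the survival gene Bcl2l1 by 2.39 ± 0.17, and 4 fell.

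EGF receptor ligands and the early genes downstream of growth factors rose. Areg, which encodes amphiregulin, had 344, 246 and 313 CPM in COL_cWRNE, 131, 77.5 and 86.6 CPM in COL_Control and 34.1, 37.9 and 16.5 CPM in MG_Control (log2 fold change 3.35 ± 0.30). Ereg, Hbegf and Tgfa rose by 4.33 ± 0.44, 3.27 ± 0.18 and 1.70 ± 0.12, and the receptor gene Egfr by 1.87 ± 0.15. The feedback inhibitors Errfi1 and Dusp6 rose by 2.12 ± 0.11 and 2.42 ± 0.17. Of 20 tested 11 rose and 1 fell. Fos had 890.1, 723 and 779 CPM in COL_cWRNE, 417, 364 and 225 CPM in COL_Control and 21.9, 32.7 and 20.1 CPM in MG_Control (log2 fold change 5.00 ± 0.26). Egr1, a zinc finger early gene, had 561, 377 and 547 CPM in COL_cWRNE, 483, 524 and 311 CPM in COL_Control and 22.9, 22.5 and 24.6 CPM in MG_Control. For Egr1 the collagen groups overlapped (0.17 ± 0.19, adjusted p = 0.555), above every MG_Control library. Dusp1 and Junb rose by 4.95 ± 0.28 and 2.82 ± 0.18. Among 16 tested genes of the immediate early and heat shock list, 13 rose (median 3.32), and 7 rose and 2 fell against COL_Control (median 0.40).

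All 19 interferon response genes that could be tested rose (median 4.19), and 17 of them rose against COL_Control (median 2.56). With VIL in place of COL_Control in the fit, 19 of 20 tested rose and 0 fell. With a minimum of 10 CPM in at least 3 libraries, all 12 tested rose, where 3039 of all 10306 genes tested rose. Irf7, a factor that amplifies the response, had 69.3, 42.6 and 104 CPM in COL_cWRNE, 12.1, 12.3 and 18.5 CPM in COL_Control and 6.50, 6.64 and 6.24 CPM in MG_Control (log2 fold change 3.48 ± 0.30, adjusted p = 3.13e-06). Bst2, the tetherin that holds virus particles on the cell, had 47.3, 37.6 and 53.1 CPM in COL_cWRNE, 25.1, 17.3 and 20.6 CPM in COL_Control and 8.10, 9.74 and 6.79 CPM in MG_Control (log2 fold change 2.49 ± 0.20). COL_cWRNE was highest in both. Isg15, a ubiquitin-like modifier, rose by 5.14 ± 0.46, Rsad2, which encodes viperin, by 4.66 ± 0.46, Ifit1, which binds viral RNA, by 4.68 ± 0.79 and Usp18, which removes Isg15, by 4.23 ± 0.71. The guanylate-binding protein genes Gbp2 and Gbp3 and the sensor Oas2 had 0 counts in MG_Control and were at least 67.9-fold, 135-fold and 111-fold higher. For genes at 0 counts in MG_Control a fall could not be called. Of the immune cell list, Ptprc had 0 counts in COL_cWRNE, and Cd68, Csf1r and Cd14 were higher there; their part in this result was not tested.

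The promoters of Isg15, Rsad2 and Bst2 are shown because GAAA, any 2 bases (NN), and GAAA again form the core of the element that interferon-activated factors bind. This motif was read on either strand (TTTC, NN and TTTC on the other) in the 250 bases before the start. It occurred in 9 of the 16 interferon response genes with a promoter in the RefSeq table (56.2%, GRCm38.p6). It also occurred in 3.04% of the 11004 tested genes with a promoter and in 2.98% of all 32851 single promoters. The 9 genes were Bst2, Gbp2, Gbp3, Ifit1, Ifit3, Isg15, Oas1a, Rsad2 and Stat2. Capitals mark the matches, which run together where they overlap.
Isg15 (chr4:156200819-156201068, minus strand): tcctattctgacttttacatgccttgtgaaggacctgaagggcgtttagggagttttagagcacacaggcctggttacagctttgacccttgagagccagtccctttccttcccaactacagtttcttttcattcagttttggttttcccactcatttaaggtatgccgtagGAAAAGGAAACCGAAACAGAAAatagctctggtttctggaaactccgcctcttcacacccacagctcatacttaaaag
Rsad2 (chr12:26456453-26456702, minus strand): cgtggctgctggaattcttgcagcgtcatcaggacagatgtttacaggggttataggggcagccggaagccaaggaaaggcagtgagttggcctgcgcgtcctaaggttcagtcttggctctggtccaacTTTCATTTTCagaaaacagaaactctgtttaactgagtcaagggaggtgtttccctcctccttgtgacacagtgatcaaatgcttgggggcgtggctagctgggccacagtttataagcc
Bst2 (chr8:71537473-71537722, minus strand): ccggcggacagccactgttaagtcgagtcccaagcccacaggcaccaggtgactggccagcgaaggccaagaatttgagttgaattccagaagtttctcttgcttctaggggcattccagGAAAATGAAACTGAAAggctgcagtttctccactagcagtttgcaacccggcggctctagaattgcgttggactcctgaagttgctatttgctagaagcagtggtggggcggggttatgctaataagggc
Matches in Isg15 started 78, 72 and 66 bases before the gene start, those in Bst2 130 and 124 bases before it, and the one in Rsad2 120 bases before it.

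Antigen presentation genes rose in part. Of 14 tested 9 rose and 1 fell. Cd74, the invariant chain of class II, had 28.1, 33.6 and 83.0 CPM in COL_cWRNE, 9.97, 5.77 and 7.60 CPM in COL_Control and 1.49, 4.89 and 0.997 CPM in MG_Control (log2 fold change 4.30 ± 0.59). H2-D1, a class I gene, rose by 0.77 ± 0.09, and Tapbp, a loading chaperone, by 1.18 ± 0.12, while H2-T3, a class I-like gene of enterocytes, changed by -3.14 ± 0.32. H2 genes are close paralogs, so their single values are uncertain. Among 17 tested genes of NF-kB signalling and inflammation, 15 rose and 2 fell (median 2.22), and 6 rose against COL_Control. Tnfaip3, an inhibitor of NF-kB, had 124, 153 and 113 CPM in COL_cWRNE, 43.4, 33.9 and 28.6 CPM in COL_Control and 13.2, 10.3 and 12.0 CPM in MG_Control. Il1a had 417 counts over COL_cWRNE and 1 over MG_Control, a ratio of 401 (95% counting interval 71.5 to 15900). The hydrogen peroxide-forming oxidase gene Duox2 and its partner Duoxa2 rose by 2.30 ± 0.27 and 3.11 ± 0.31, and Birc3 by 1.15 ± 0.13. Pigr, which carries IgA across the epithelium, changed by -1.84 ± 0.24, and the chemokine gene Ccl20 by -1.29 ± 0.38, a call lost without COL_cWRNE replicate 2 (-1.03). Of the immune cell list Cd68 (5.86 ± 0.37), Csf1r (3.77 ± 0.45) and Cd14 (1.91 ± 0.27) rose beside these genes; Ptprc, Adgre1, C1qa, C1qb, Tyrobp and Cd79a were at 0 counts in COL_cWRNE, and Lyz2, Fcer1g, Cd52 and Cd3e had 168, 7, 3 and 1. Their part in these results was not tested.

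Prostaglandin E synthesis genes rose at 2 steps. Ptgs2, the inducible cyclooxygenase, had 118, 159 and 66.4 CPM in COL_cWRNE, 6.48, 5.06 and 1.38 CPM in COL_Control and 0, 1.05 and 0 CPM in MG_Control (log2 fold change 8.41 ± 0.85, adjusted p = 1.02e-05, or 14.69 without MG_Control replicate 2). Ptges, the terminal synthase, had 144, 146 and 153 CPM in COL_cWRNE, 9.94, 5.20 and 6.26 CPM in COL_Control and 1.26, 0.261 and 0.129 CPM in MG_Control (log2 fold change 8.09 ± 0.48, adjusted p = 2.27e-07). For both genes COL_cWRNE was above all libraries of the other groups. Hpgd, which degrades prostaglandins, changed by -2.96 ± 0.20, with the collagen groups alike in level (5.96 ± 0.614 CPM in COL_cWRNE and 5.58 ± 0.329 CPM in COL_Control). Ptges2, a second synthase, changed by -0.93 ± 0.13. The remaining list genes gave smaller or no changes, 4 of 12 having risen and 3 fallen.

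Glycolysis genes rose and genes of oxidative phosphorylation fell. Of 23 glycolysis and hypoxia genes 20 rose and 0 fell (median 1.10), and 6 rose against COL_Control. Hk1, the first enzyme of glycolysis, rose by 2.95 ± 0.16, the glucose transporter Slc2a1 by 1.75 ± 0.14, Egln3, an oxygen-sensing hydroxylase, by 2.89 ± 0.30, Vegfa by 1.38 ± 0.14 and the lactate exporter Slc16a3 by 1.63 ± 0.27. Slc2a1 had 418, 452 and 443 CPM in COL_cWRNE, 312, 296 and 292 CPM in COL_Control and 159.9, 129 and 101 CPM in MG_Control. Of 24 nuclear genes of oxidative phosphorylation 23 fell and 0 rose (median -0.65), and 2 fell against COL_Control (median -0.12). Ndufa4 changed by -1.22 ± 0.12, and the ATP synthase genes Atp5g1 and Atp5a1 by -1.23 ± 0.14 and -0.66 ± 0.09. Of 17 genes encoded by the mitochondrial genome 15 fell and 0 rose. Their share of counts was 0.705%, 0.616% and 0.651% in COL_cWRNE, 0.836%, 0.754% and 0.921% in COL_Control, and 1.41%, 1.32% and 1.12% in MG_Control. The part of RNA quality in these shares was not tested.

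Lipid genes fell moderately. Of 24 cholesterol genes 12 fell and 1 rose (median -0.22), 3 fell with VIL in the fit, and 17 fell against COL_Control. Mvk, mevalonate kinase, changed by -1.20 ± 0.09, Idi1 by -0.91 ± 0.13 and Dhcr7 by -0.84 ± 0.12. Among 12 fatty acid synthesis genes Fads2 changed by -1.33 ± 0.11 and Elovl6 by -0.94 ± 0.11, whereas Me1, which supplies NADPH, rose by 2.12 ± 0.13 and Elovl5 by 0.83 ± 0.10. Of 17 oxidation genes 10 fell, including the regulator Ppara (-2.76 ± 0.30), Acaa2 (-1.13 ± 0.12) and Ehhadh (-1.38 ± 0.15), and 3 rose, including the lipid droplet gene Plin2 (1.92 ± 0.17).

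More genes of nitrogen and foreign compound metabolism fell than rose against MG_Control, though many rose. Cps1, the first enzyme of the urea cycle, had 414, 156 and 589.5 CPM in COL_cWRNE, 574, 1235 and 1179 CPM in COL_Control and 2430, 2262 and 3305 CPM in MG_Control (log2 fold change -2.79 ± 0.42, adjusted p = 0.000216). Otc, the next enzyme, changed by -5.13 ± 0.38, Nags, which makes the activator of Cps1, by -3.69 ± 0.30 and Arg2, an arginase, by -5.28 ± 0.32. Ass1, a later enzyme of the cycle, rose by 2.45 ± 0.26, and Sat1, which acetylates polyamines, by 2.11 ± 0.12. Of 16 genes of this list 8 fell and 4 rose, and 4 fell with VIL in the fit; 2 rose without COL_cWRNE replicate 1. Of 28 drug and antioxidant genes 15 fell and 10 rose. Ces2e, a carboxylesterase, had 17.6, 16.2 and 12.1 CPM in COL_cWRNE, 57.1, 131 and 141 CPM in COL_Control and 391, 421 and 406 CPM in MG_Control. Cyp2b10, Ces1f, Gstm1 and Cyp3a11 changed by -5.22 ± 0.39, -5.31 ± 0.40, -2.40 ± 0.18 and -4.98 ± 0.54. Those that rose included the aryl hydrocarbon receptor targets Ahrr (3.89 ± 0.71) and Tiparp (1.39 ± 0.11) and the haem-degrading Hmox1 (2.03 ± 0.26), while Cyp1a1, a target of the same receptor, did not pass (-0.68 ± 0.36, adjusted p = 0.151), except without MG_Control replicate 1 (-0.98). Against COL_Control 15 of this list rose and 3 fell (median 0.62).

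Retinoid genes changed in both directions. Stra6, which takes up retinol, was described above. Of the retinal-oxidising enzymes, which make retinoic acid, Aldh1a1 had 13.7, 19.5 and 9.43 CPM in COL_cWRNE, 10.3, 10.9 and 9.80 CPM in COL_Control and 201, 296 and 319 CPM in MG_Control (log2 fold change -4.26 ± 0.26, adjusted p = 2.55e-07). Aldh1a3, its paralog, had 73.8, 104 and 78.2 CPM in COL_cWRNE, 3.42, 1.52 and 1.27 CPM in COL_Control and 0.632, 1.05 and 0.772 CPM in MG_Control (log2 fold change 6.70 ± 0.37, adjusted p = 1.54e-07). Aldh1a1 was high in Matrigel and Aldh1a3 in collagen cWRNE, with COL_Control low for both. Rbp2, a retinol-binding protein gene given above, fell as well. Rdh7, a retinol dehydrogenase, changed by -6.13 ± 0.59, and Cyp26b1, which degrades retinoic acid, rose by 3.86 ± 0.80. In all 4 of 13 rose and 8 fell.

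Metallothioneins were low in both collagen groups. Mt1, which binds zinc and copper, had 161, 114 and 187 CPM in COL_cWRNE, 129, 119 and 184 CPM in COL_Control and 2690, 2356 and 1915 CPM in MG_Control (log2 fold change -3.91 ± 0.23, adjusted p = 2.06e-07). Mt2 had 21.2, 10.6 and 22.9 CPM in COL_cWRNE, 6.32, 7.50 and 11.3 CPM in COL_Control and 615, 575 and 435 CPM in MG_Control (log2 fold change -4.90 ± 0.31, adjusted p = 3.43e-07). Slc39a4, the apical zinc importer, had 531, 578 and 469 CPM in COL_cWRNE, 692, 636 and 569 CPM in COL_Control and 71.6, 52.3 and 54.5 CPM in MG_Control (log2 fold change 3.14 ± 0.15, adjusted p = 9.74e-08). For Mt1 and Slc39a4 the collagen groups overlapped, low for Mt1 and high for Slc39a4, and MG_Control stood apart. The zinc exporter Slc30a1 changed by -1.10 ± 0.22 and the basolateral importer Slc39a5 by -4.13 ± 0.22, and Slc39a10 was at 3.01 ± 0.27 (adjusted p = 3.69e-06). Of 12 metal genes 5 rose and 6 fell, and 2 rose with VIL in the fit, and 3 without COL_cWRNE replicate 3 or MG_Control replicate 2.

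The promoters of Mt1 and Mt2 are shown because zinc activates these genes through MTF1. Its element has the core TGCRCNC, where R is A or G, and only the form with A was searched. The letters TGCACNC, or GNGTGCA on the other strand, were looked for in the 250 bases before the start (GRCm38.p6). They occurred in 4 of the 8 metal genes with a promoter in the RefSeq table (Mt1, Mt2, Slc30a1 and Slc39a5, 50.0%). They also occurred in 12.8% of the 11004 tested genes with a promoter and in 10.4% of all single promoters. Capitals mark the matches.
Mt1 (chr8:94178839-94179088, plus strand): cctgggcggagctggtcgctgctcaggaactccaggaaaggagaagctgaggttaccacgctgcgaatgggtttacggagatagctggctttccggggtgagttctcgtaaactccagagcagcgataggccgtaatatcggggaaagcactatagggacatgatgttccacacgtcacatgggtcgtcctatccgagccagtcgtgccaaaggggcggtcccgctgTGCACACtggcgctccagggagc
Mt2 (chr8:94172368-94172617, plus strand): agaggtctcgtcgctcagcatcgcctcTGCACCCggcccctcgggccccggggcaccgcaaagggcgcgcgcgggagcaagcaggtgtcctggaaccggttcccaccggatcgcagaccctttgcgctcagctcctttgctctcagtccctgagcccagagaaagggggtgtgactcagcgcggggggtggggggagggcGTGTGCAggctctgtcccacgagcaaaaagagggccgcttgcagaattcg
The match in Mt1 started 23 bases before the gene start and those in Mt2 223 and 50 bases before it.

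Stress response genes of the unfolded protein and amino acid pathways showed a small median change against MG_Control, where 6 of 19 rose and 3 fell (median 0.16); 3 rose with VIL in the fit. Ppp1r15a, which restarts translation, rose by 2.08 ± 0.12, Ddit3 by 1.33 ± 0.22 and the cystine importer Slc7a11 by 1.69 ± 0.22, whereas Cth, a cysteine-making enzyme, changed by -1.39 ± 0.21. Against COL_Control 12 rose and 0 fell (median 0.47).

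**Figure D3:**
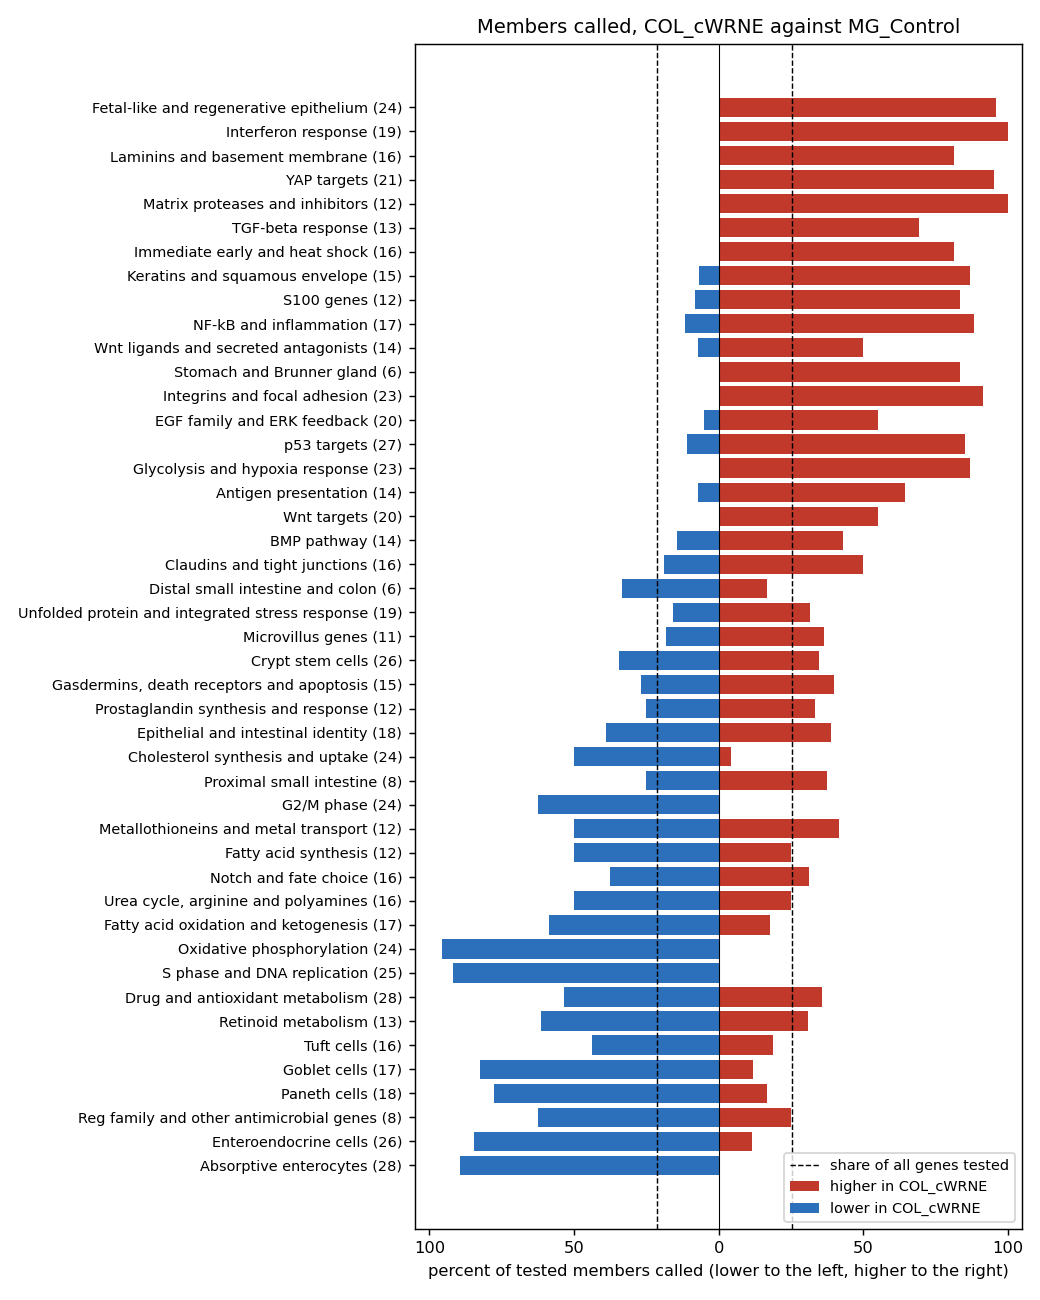
Share of tested members (number in brackets) of each list of at least 6 genes that was called higher (red, right) or lower (blue, left) in COL_cWRNE than in MG_Control, ordered by the list's median log2 fold change. Dashed lines mark the shares over all genes tested, 25.2% higher and 21.2% lower. All interferon and matrix protease genes tested in this fit of 9 libraries were called higher, and absorptive enterocyte genes lie at the bottom.

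Set side by side, the lists varied in how far the median against COL_Control lay from that against MG_Control. Fetal-like genes (medians 4.48 against MG_Control and 1.86 against COL_Control), YAP targets (3.63 and 2.09) and interferon genes (4.19 and 2.56) were higher in COL_cWRNE than in either group, with the smaller median against COL_Control. Immediate early genes (3.32 and 0.40), glycolysis genes (1.10 and 0.19) and oxidative phosphorylation genes (-0.65 and -0.12) also had a median smaller in size against COL_Control than against MG_Control. Paneth cell genes had medians of -1.58 against MG_Control and -0.08 against COL_Control, and goblet cell genes of -1.28 and -0.16. S phase genes (-0.65 and -0.53) and G2/M genes (-0.39 and -0.50) had similar medians in both. For cholesterol genes the median against COL_Control was the larger in size (-0.22 against MG_Control and -0.48 against COL_Control). The medians are descriptions, since both comparisons share the COL_cWRNE libraries.

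**Figure D4:**
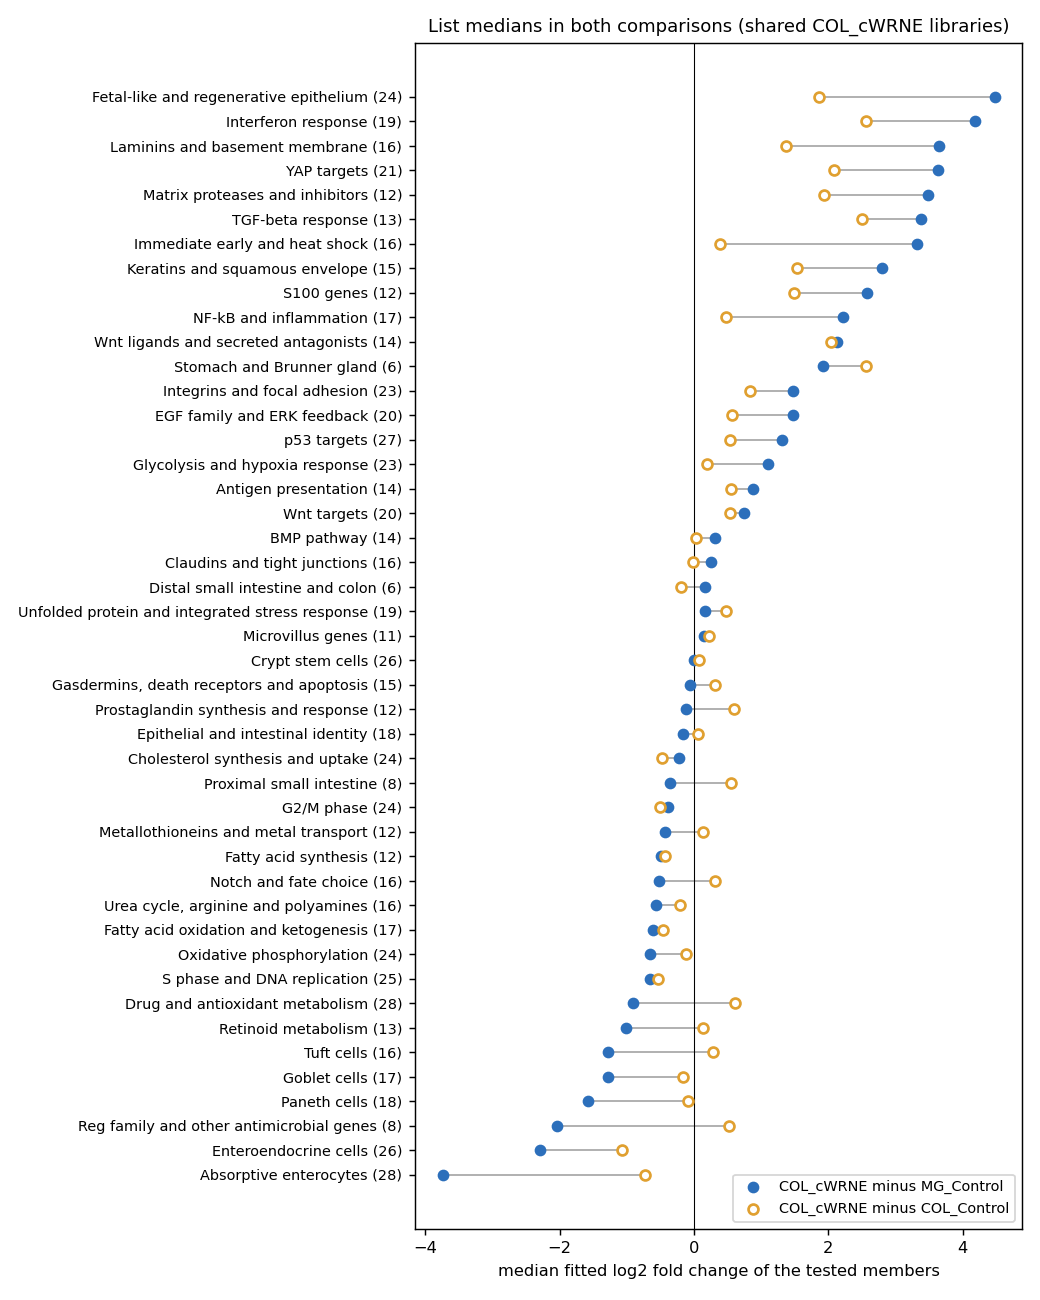
Median fitted log2 fold change of the tested members (number in brackets) of each list of at least 6 genes, COL_cWRNE minus MG_Control (filled blue) and COL_cWRNE minus COL_Control (open orange), with a line joining the pair. The pair lies far apart for absorptive enterocyte and immediate early genes, and close together for S phase, G2/M and Wnt ligand genes.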

How the data were processed

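RNA was measured with SMART-Seq mRNA and Nextera XT libraries on a NovaSeq X Plus, per the labels' protocols, without molecular identifiers, so floors and intervals cover counting error only. The authors deposited one table that holds estimated counts and TPM per gene and library, per the file headers; 67.8% of nonzero estimated counts were whole numbers within 1e-09. The submitters' processing notes name bcl2fastq 2.20, DRAGEN and the build GRCm39; the annotation, the counting tool and its filters were not given in the sources used here. Symbols were matched from a gene table for 52081 of 55414 identifiers; where 15 symbols had more than one tested identifier, the one with most counts was used.

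After rounding of the estimated counts, edgeR 4.0.16 under R 4.3.3 was run over the 9 libraries of COL_cWRNE, COL_Control and MG_Control, with TMM scaling, the filterByExpr filter (minimum count 10, minimum total 15), the quasi-likelihood F-test and Benjamini-Hochberg adjustment over all 16352 genes tested. Calls are at 0.05 on the adjusted p. Fold changes are on the log2 scale, and each SE was obtained by dividing the fold change by the square root of F. Where a group had 0 counts, the fold is a bound against 3 counts over the group. With totals of 25.8 to 33.2 M counts, 3 counts correspond to under 1 CPM. The fit was tested on simulated counts.

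Genes were named by rule: the 12 per direction with the largest fold among non-overlapping called genes of at least 10 CPM, the 8 per direction with the largest CPM difference, up to 4 per list by adjusted p, fixed markers, and every member of some lists; 66 further genes, such as Msln, Il33, Smoc2, Cdx2, Areg and Pyy, were named after their values were seen. Members and lists (50 lists, 862 genes, 767 tested) were chosen with earlier results of these data known. Alternatives were DESeq2 1.42.0, RLE or library-total scaling, other filters, other sets of libraries, the replicate number as a block, a fold threshold, limma 3.58.1 on log2(TPM + 1) of the deposited TPM (genes reaching 1 TPM in 3 or more libraries), and each library left out. In COL_cWRNE and COL_Control, same-numbered libraries deviated together from their group means (r = 0.16, 0.27 and 0.142 over 10761 genes), though COL_cWRNE replicate 1 and COL_Control replicate 3 did too (r = 0.233), and no label states a pairing. The other libraries, treated with 5-fluorouracil or derived from villi, entered alternatives only. Promoter sequences are from RefSeq on GRCm38.p6, another build than that of the counts, and no coordinate was carried between them. P-values measure the spread between these libraries. A few named genes are not reported here.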

Additional observations from a re-analysis of the deposited data

Results flagged for a closer look

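The 28 called genes with 0 counts in both MG_Control and COL_Control were looked for in the libraries outside the comparisons. All 28 were above the limit of 3 counts over a group in the villus-derived cultures (VIL), 16 in the 5-fluorouracil-treated collagen cultures (COL_5FU) and 7 in the treated Matrigel cultures (MG_5FU). VIL was grown with cWRNE at 25%, as COL_cWRNE was, and the 5-fluorouracil-treated groups without it. The 3 of these 28 genes that are named are given here. Values here are CPM by library totals. Acsbg1, an acyl-CoA synthetase gene, averaged 12.9 CPM in VIL (1.67, 10.2 and 26.9 CPM) and had 12.6, 13.9 and 10.6 CPM in COL_cWRNE. It averaged 0.949 CPM in COL_5FU and 0.0729 CPM in MG_5FU. Dkk2 averaged 5.69 CPM in VIL (0.508, 8.24 and 8.34 CPM) and had 23.3, 40.5 and 24.0 CPM in COL_cWRNE. Flt1, a VEGF receptor gene, averaged 12.7 CPM in VIL (0, 3.51 and 34.4 CPM) and had 2.14, 4.82 and 3.89 CPM in COL_cWRNE. It averaged 0.409 CPM in COL_5FU. The VIL libraries differed widely among themselves for each of the 3 genes, and no test was run on them.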

How the results depend on the processing

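Requiring a log2 fold change of at least 1 in size left 3765 genes between COL_cWRNE and MG_Control (2383 higher, 1382 lower) and 1669 between COL_cWRNE and COL_Control (1229 higher, 440 lower). The other alternatives stayed within 1.5 times the 7592 and 3987 genes called. For COL_cWRNE against MG_Control they ran from 5556 with VIL in place of COL_Control in the fit and 6116 with a minimum of 10 CPM to 8003 with DESeq2. For COL_cWRNE against COL_Control they ran from 3184 with all 18 libraries to 4697 with DESeq2. Leaving out 1 library gave 6662 to 7640 and 2827 to 4284. Library totals moved the median over all genes to -0.09 and -0.17 in these comparisons. For COL_cWRNE and MG_Control, same-numbered libraries did not deviate together from their group means (r = 0, 0.053 and -0.022). With so few libraries this cannot exclude a pairing, and the sex signal matched by number in both groups. A fit with the replicate number as a block called 7448 genes for COL_cWRNE and MG_Control. For COL_cWRNE and COL_Control the blocked fit called 3861.

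Of 342 named genes tested, 324 were called. Of these 282 had a value under every alternative, and 231 of them kept the call under each. The other 42 had no value under at least 1 alternative, mostly the minimum of 10 CPM, which left out 50 named genes, and limma on TPM, which left out 18; 32 of the 42 kept the call wherever they had a value. In all, 61 lost the call under at least 1 alternative. The values that changed sign belonged to genes that were not called. Ascl2 (0.0061) was at -0.0019 with DESeq2 and with RLE, -0.0737 with library totals, -0.0077 without the filter, -0.0174 with at least 10 CPM, -0.0232 with the 2 groups alone, -0.0193 with VIL in the fit and -0.1342 to 0.1244 with 1 library left out. Wnt4 (0.41) ranged over -0.27 to 0.71 with 1 library left out. Nuak2 (-0.06) was at 0.11 with limma on TPM and ranged over -0.2264 to 0.0654 with 1 library left out. The causes were not tested. Fold changes of genes at or near 0 counts in a group were smaller with limma on log2(TPM + 1), where the pseudocount sets the floor.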
